A study of Homo sapiens with 6 samples.

Results

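The miR-146 and miR-155 microRNAs (miRNAs) were examined in small RNA sequencing of MDA-MB-231 cells. The members were taken by name as both arms of miR-146a, miR-146b and miR-155, chosen as miRNAs that NF-κB induces. These are 6 mature miRNAs, of which 5 have a row among the 1582 miRNAs of the table, and hsa-miR-155-3p was not analysed here. MDA-MB-231 is an established human triple negative breast cancer line, negative for both hormone receptors and for amplified HER2. One group of 3 libraries came from MDA-MB-231 cells that carry RARαS77A, a retinoic acid receptor α in which an alanine replaces a serine, so that this residue cannot be phosphorylated. The other group of 3 libraries, called control, came from MDA-MB-231 cells that were not transfected. The control received no empty vector, so the delivery of the construct and the mutant receptor cannot be told apart, and the cells also have their own RARα. No library came from cells overexpressing wild-type RARα, so more receptor and the lost phosphorylation site cannot be told apart either. No source used here says whether the replicates were separate cultures, so each p-value measures only the spread between these libraries, which may be technical.

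NF-κB is a family of transcription factors that is held in the cytoplasm by inhibitor proteins and enters the nucleus when Toll-like receptors or cytokine receptors are activated. miR-146a, transcribed from an NF-κB responsive promoter, is known to repress the signalling adaptors TRAF6 and IRAK1 and so to act as a brake on the same pathway. miR-146b has nearly the same 5p arm and is known to share these targets. miR-155 is processed from the BIC transcript, is abundant in activated lymphocytes and macrophages, and is known for targets such as SOCS1 and INPP5D. A hairpin precursor yields a 5p and a 3p arm, and the arm that is usually kept in the silencing complex is the guide.

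The mature sequences are shown because the miR-146 guides differ only outside the seed, so that reads are assigned to one or the other by a few bases at the 3′ end. They were taken from RefSeq on GRCh38.p14, and capitals mark the seed, bases 2 to 8.
hsa-miR-146a-5p: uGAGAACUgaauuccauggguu
hsa-miR-146b-5p: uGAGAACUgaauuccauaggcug
hsa-miR-146a-3p: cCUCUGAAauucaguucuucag
hsa-miR-146b-3p: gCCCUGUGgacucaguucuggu
hsa-miR-155-5p: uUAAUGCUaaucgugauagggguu
hsa-miR-155-3p: cUCCUACAuauuagcauuaaca
The first 17 bases of miR-146a-5p and miR-146b-5p are the same. Counted from 1 at the 5′ end, miR-146b-5p has the substitutions G18A and U21C relative to miR-146a-5p over the 22 positions compared, and it is 23 bases long instead of 22. The 3p arms, paired position by position from the 5′ end without alignment, had 6 of 22 positions the same. They share a run of bases at shifted positions, so this count understates their likeness. The only other RefSeq miRNA with the miR-146 seed is hsa-miR-7153-5p, which was not analysed here, and none of the other mature human miRNAs in RefSeq has the seed of miR-155-5p. No other miRNA of the table had counts within 5% of those of miR-146a-5p, miR-146b-5p or miR-146b-3p in every library. The rarer members were not compared. This finds only rows with nearly equal counts and does not show how reads were divided between the miR-146 guides.

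The 3 precursors lie at separate loci. In GENCODE 29 on GRCh38, MIR146A is at chr5:160485352-160485450 on the plus strand, in an exon of the lincRNA gene MIR3142HG. MIR155 is at chr21:25573980-25574044 on the plus strand, in an exon of the lincRNA gene MIR155HG. MIR146B, at chr10:102436512-102436584 on the plus strand, overlaps no annotated gene, and its nearest neighbour is CUEDC2, 3850 bases before it. The RefSeq promoter windows of both host genes, which cover the bases just before and after the transcription start, were searched on both strands for the κB decamer, the DNA sequence that NF-κB dimers bind. The MIR3142HG window holds 1 match, 120 bases before the start. It is shown in capitals within the 30 bases at chr5:160468121-160468150 on GRCh38.p14, plus strand.
MIR3142HG promoter: ggatctagaaGGGACTTTCCagagagggtt
The RefSeq start of MIR3142HG used here is not the start that GENCODE gives. The MIR155HG window holds 0 matches. The motif occurs in 2075 of 35116 RefSeq promoter windows, or 5.91%, and a match is a description of these letters only.

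Library totals lay between 9019266 and 11338580 counts. The deposited TPM equals the count scaled by the library total and has no length term. At 95% confidence, a count of 0 allows up to about 3 counts, which correspond to 0.265 to 0.333 TPM. The fits used TMM scaling, which sets library sizes so that most miRNAs do not change on average, and gave factors of 1.15 to 1.30 in control and 0.811 to 0.830 in RARαS77A libraries. Levels after this scaling are called CPM here. The labelled line was set beside miRNAs known to be abundant in it. The summed level of miR-21-5p, miR-100-5p, miR-221-3p and miR-222-3p was 607180 to 706280 TPM. Most of it was miR-21-5p, so this does not identify the line. The summed level of 6 epithelial miRNAs, known to be low in this line, was 89.7 to 128 TPM. That of 7 blood and immune cell miRNAs was 23.7 to 45.3 TPM. Control replicate 3 stood apart from its group. Its summed level of 8 pluripotent stem cell miRNAs was 421 TPM, against 0.185 and 0.0882 in control replicates 1 and 2 and 278 to 288 in the RARαS77A libraries. The member fits are therefore given with and without it. Control replicate 1 held 91.5 TPM of 4 muscle miRNAs, against 2.65 to 5.10 TPM in the other libraries, and control replicate 2 had the lowest level of the liver miRNA miR-122-5p, at 8.73 TPM against 34.6 to 53.6 TPM.

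Of the 5 members with a row, 3 passed the filter on low counts and were tested among 506 miRNAs with edgeR's quasi-likelihood test (Benjamini-Hochberg adjusted p under 0.05). The guide miR-146b-5p and its partner arm miR-146b-3p were called higher in RARαS77A cells, as were 23.3% of all tested miRNAs, but the call for miR-146b-3p was kept in only 1 of 17 alternatives. No member was called lower, where 21.1% of all tested miRNAs were. The count of lower members was also 0 in edgeR at an unadjusted p under 0.05 and 0 with DESeq2 and limma-voom. It was not 0 throughout, as miR-146a-5p was called lower in 6 of the 18 alternatives. On the CPM scale, these 2 members had RARαS77A and control libraries that did not overlap, as did 58.1% of all tested miRNAs. The most abundant member, miR-146a-5p, did not pass the test, and its level depended on the scaling. miR-155-5p was close to the limit of detection. In such bulk libraries, fewer cells with a miRNA and less of it per cell cannot be told apart.

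miR-146b-5p, the guide arm of miR-146b, increased 2.22-fold in RARαS77A cells (95% interval 1.76 to 2.80). Its counts were 1779, 2195 and 2037 in the control libraries and 2998, 2582 and 3087 in the RARαS77A libraries. These correspond to 143, 149 and 186 CPM in control and 381, 307.5 and 372 CPM in RARαS77A libraries. Every RARαS77A library lay above every control library, and on the CPM scale the lowest of them was well above control replicate 3, the highest control. The means were 159 ± 23.4 and 354 ± 40.1 CPM (SD, n = 3 each). On the log2 scale the difference was 1.15 (SE 0.14, adjusted p = 0.000712, edgeR), and the exact permutation test gave p = 0.1, the smallest that 3 against 3 libraries allow. As deposited TPM, which has no TMM factor, the groups were 195 ± 30.6 and 290 ± 33.1 (SD, n = 3 each) and again did not overlap. The increase was 1.49-fold on that scale, and the lowest RARαS77A library, at 251 TPM, was closer to control replicate 3, at 226 TPM. Without control replicate 3 the log2 fold change was 1.23 (adjusted p = 0.000176, edgeR). No label names a batch, but with a term, called the batch term here, that places control replicate 3 with the RARαS77A libraries and so leaves 1 control library beside them, it was 0.93 (adjusted p = 0.00667, edgeR). All 18 alternatives kept the increase past the limit, with log2 fold changes of 0.55 to 1.36 and adjusted p-values of 3.03e-12 to 0.0158 (edgeR, DESeq2 or limma). Among the 506 tested miRNAs it ranked 64 from the highest log2 fold change.

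**Figure D1:**
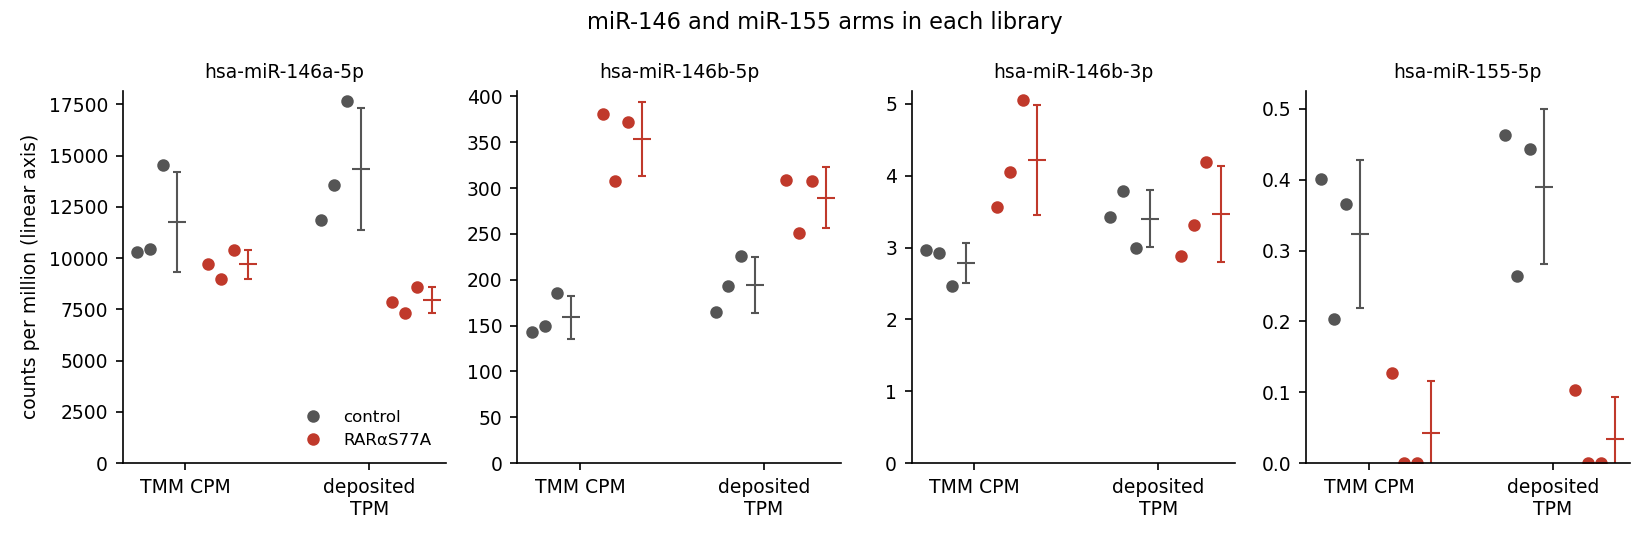
Level of 4 members in each library, as TMM-scaled CPM and as deposited TPM on linear axes from 0, with points for the 3 control and 3 RARαS77A libraries and bars for the mean ± SD. miR-146b-5p is higher in all RARαS77A libraries on both scales, miR-146b-3p only as CPM, miR-146a-5p is lower without overlap only as TPM, and miR-155-5p stays under 0.5.

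miR-146a-5p was by far the most abundant member and did not pass the test. Its counts were 128252, 153669 and 159304 in control and 76368, 75409 and 86259 in RARαS77A libraries. As deposited TPM, the controls had 11870, 13553 and 17663 and the RARαS77A libraries 7877, 7345 and 8615. On that scale every RARαS77A library was below every control, and the means of 14362 ± 2980 and 7945 ± 638 TPM (SD, n = 3 each) had a ratio of 0.553. After TMM scaling the control libraries had 10287, 10448 and 14556 CPM and the RARαS77A libraries 9715, 8981 and 10386 CPM. The groups then overlapped, since the highest RARαS77A library exceeded the lowest control, and control replicate 3 stood above all others. The means were 11764 ± 2420 and 9694 ± 703 CPM (SD, n = 3 each; exact permutation test, p = 0.2). The log2 fold change was -0.28 (SE 0.15, 95% interval -0.64 to 0.08, adjusted p = 0.173, edgeR). With total counts as the only scaling it was -0.85 (adjusted p = 0.00352, edgeR), which passed the limit, and in that setting the median of all 506 tested miRNAs also moved, from 0.06 to -0.51. Without control replicate 3 it was -0.15 (adjusted p = 0.365, edgeR), and with the batch term it was -0.59 (adjusted p = 0.0259, edgeR), where control replicate 3 is the lone control beside them. The call for miR-146a-5p thus differed between scalings and with the weight of control replicate 3.

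**Figure D2:**
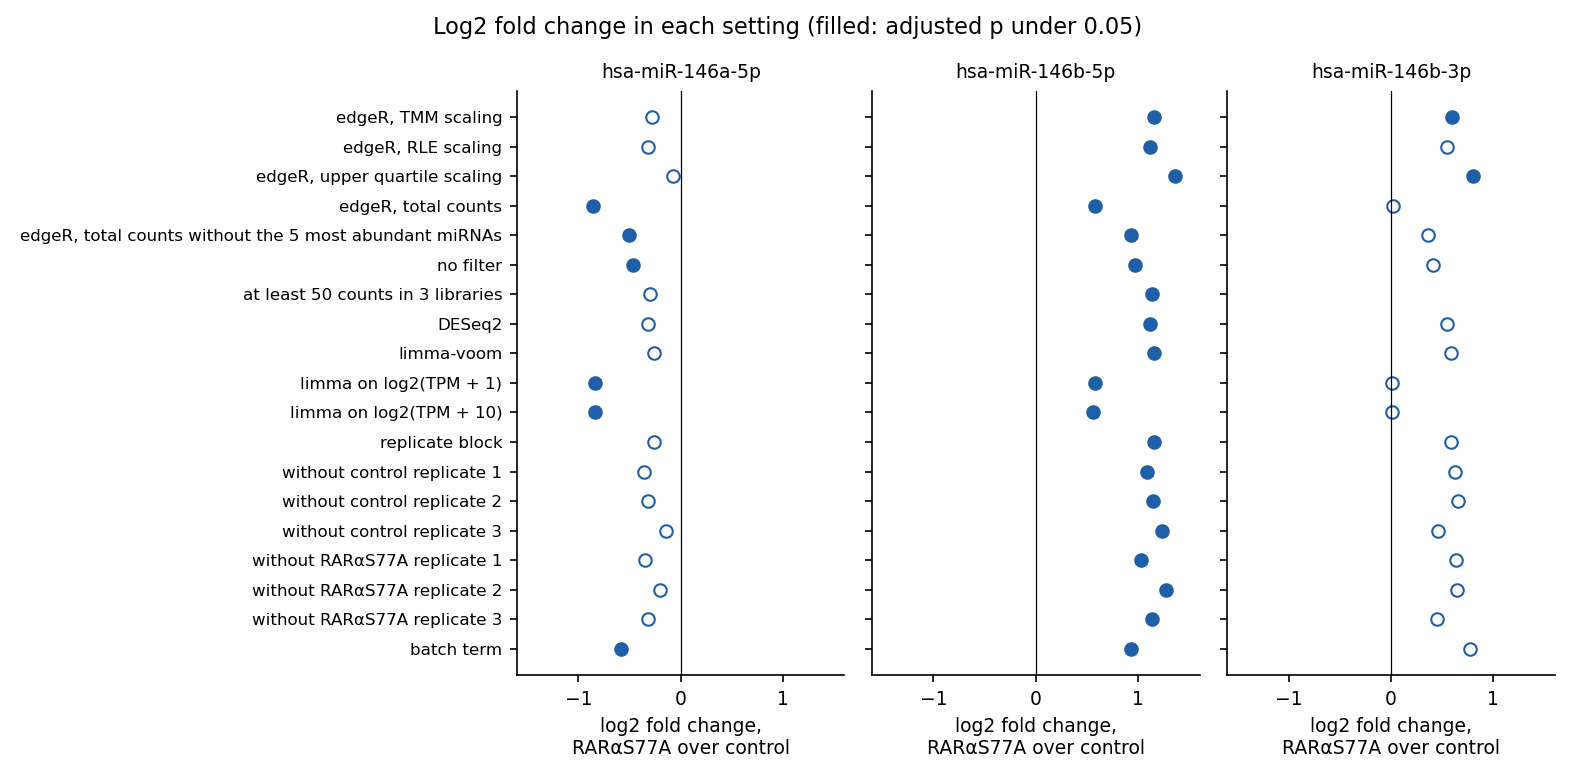
Log2 fold change of the 3 tested members, RARαS77A against control, under each of the 18 alternatives and the reported fit, on a linear axis with a line at 0 and filled points where the adjusted p is under 0.05. miR-146b-5p stays past the limit throughout, miR-146a-5p passes it in 6 alternatives and miR-146b-3p in 1.

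The balance between the miR-146 guides can be read within each library, where the scaling cancels. The miR-146b-5p count was 1.39%, 1.43% and 1.28% of the miR-146a-5p count in the control libraries. In RARαS77A cells it was 3.93%, 3.42% and 3.58%. The groups were far apart and the control libraries lay close together, control replicate 3 included. The ratio was 2.67-fold higher in RARαS77A cells, a difference of 1.42 on the log2 scale (SE 0.075, exact permutation test, p = 0.1, adjusted over the 2 ratios that could be computed p = 0.2). Leaving out each library in turn gave 1.36 to 1.46. miR-146b-5p remained the minor partner in every library. Because both guides carry the same seed, their counts were also summed, and miR-146b-5p made up 1.35% ± 0.0753 of the sum in control cells and 3.51% ± 0.239 of it in RARαS77A cells (SD, n = 3 each). The sum itself followed miR-146a-5p. It was 11923 ± 2443 CPM in control cells and 10047 ± 736 CPM in RARαS77A cells (SD, n = 3 each; exact permutation test, p = 0.3), and the groups overlapped. Control replicate 3 had 14742 CPM of the sum, against 10430 and 10597 CPM in the other controls. As a percentage of all counts, it was 1.46 ± 0.301 and 0.823 ± 0.0665 (SD, n = 3 each), and the groups did not overlap.

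**Figure D3:**
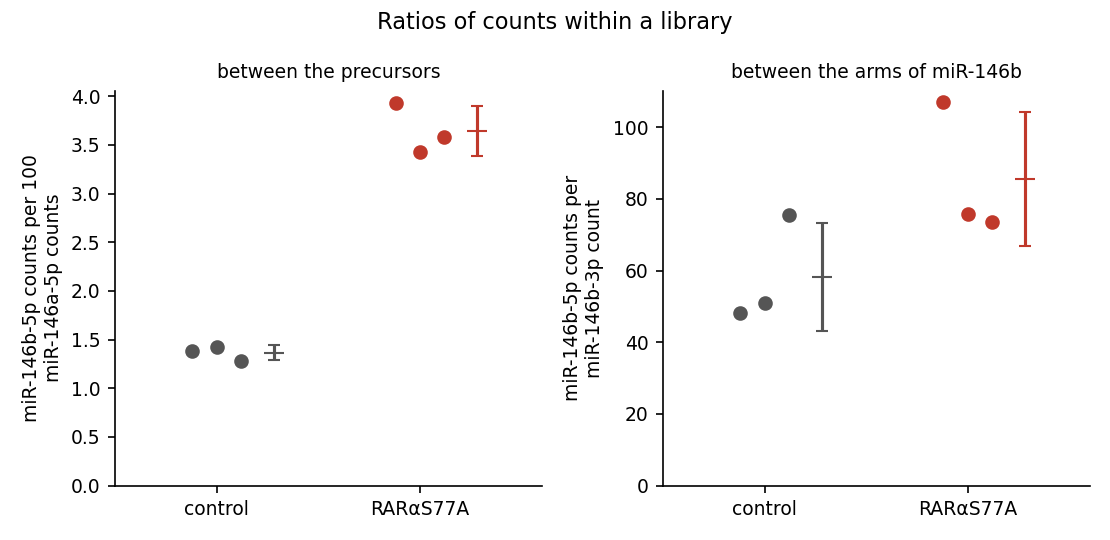
miR-146b-5p counts as a percentage of miR-146a-5p counts and per count of miR-146b-3p in each library, on linear axes from 0, as points for control and RARαS77A with bars for the mean ± SD. The ratio of the guides is 1.28% to 1.43% in control and 3.42% to 3.93% in RARαS77A libraries, while the ratio of the miR-146b arms overlaps between the groups.

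The 3p arms were rare. miR-146b-3p, the arm of miR-146b that is usually discarded, had 37, 43 and 27 counts in control and 28, 34 and 42 counts in RARαS77A libraries. After TMM scaling these were 2.97, 2.92 and 2.47 CPM in control and 3.56, 4.05 and 5.06 CPM in RARαS77A libraries. All RARαS77A libraries lay above all controls on this scale, and the means were 2.79 ± 0.277 and 4.22 ± 0.762 CPM (SD, n = 3 each). The log2 fold change of 0.60 (SE 0.20) passed the limit narrowly (adjusted p = 0.0466, edgeR). As deposited TPM, the means were 3.40 and 3.46 and the groups overlapped. The call was kept in 1 of 17 alternatives, upper quartile scaling, and was lost with each library left out in turn (log2 fold change 0.45 to 0.65, adjusted p = 0.0574 to 0.174, edgeR). The number of miR-146b-5p counts per count of miR-146b-3p was 48.1, 51.0 and 75.4 in control and 107, 75.9 and 73.5 in RARαS77A libraries. The groups overlapped, with a difference of 0.56 on the log2 scale (SE 0.27, exact permutation test, p = 0.2). An unequal change of the arms was therefore not detectable with these libraries. miR-146a-3p, the partner of the most abundant member, had 2, 0 and 0 counts in control and 0 in each RARαS77A library, and no fold change is given since both groups were at or under 3 counts per library.

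miR-155-5p, the guide of miR-155, had 5, 3 and 4 counts in the control libraries and 1, 0 and 0 counts in the RARαS77A libraries. It was listed at 0.463, 0.265 and 0.443 TPM in control and at 0.103, 0 and 0 TPM in RARαS77A libraries. The RARαS77A libraries lay below the controls, but the member did not pass the filter on low counts and was not tested (exact permutation test on its CPM, p = 0.1, the smallest possible). Pooled over libraries, there were 12 counts of 31162649 in control and 1 of 29975983 in RARαS77A cells, a ratio of 0.0866 (exact 95% interval 0.00203 to 0.586, counting error only). Without the filter its log2 fold change was -2.81, which did not pass (adjusted p = 0.203, edgeR). Without control replicate 3 the pooled ratio was 0.0923 (exact 95% interval 0.00208 to 0.689). The summed level of the 7 blood and immune cell miRNAs, which include miRNAs of red cells, was 33.3 to 45.3 TPM in control and 23.7 to 32.7 TPM in RARαS77A libraries. After TMM scaling it was 27.4 to 34.9 CPM in control and 28.5 to 40.3 CPM in RARαS77A libraries, which overlap. Of the 7, miR-223-3p and miR-144-3p were at 0 counts in all RARαS77A libraries and also in control replicate 3. The others had counts in every library. The part of such cells in the result was not tested. miR-3142, which lies in an intron of the miR-146a host transcript, had 1, 1 and 2 counts in control and 5, 1 and 1 counts in RARαS77A libraries. Its pooled ratio was 1.82 (exact 95% interval 0.463 to 8.47), so a change of this second product of the locus was not detectable at this depth.

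By mean TPM over all libraries, miR-146a-5p ranked 12 of the 1582 miRNAs, between miR-27b-3p and miR-221-3p. miR-146b-5p ranked 94, between miR-452-5p and let-7d-3p. miR-146b-3p ranked 350 and miR-155-5p 773. The ranges of miR-146a-5p and miR-146b-5p overlapped those of their neighbours in this order. Within single libraries, miR-146a-5p held rank 8 to 10 by count in control and 12 to 20 in RARαS77A cells, while miR-146b-5p held rank 103 to 117 and 76 to 84, respectively. The miRNAs whose log2 CPM followed miR-146b-5p most closely over the 6 libraries were a predicted miRNA with Pearson's r = 0.995, miR-7704 with 0.995 and miR-148a-3p with 0.994. For miR-146a-5p they were miR-548a-3p with 0.929, miR-653-3p with 0.839 and miR-200a-3p with 0.837. These correlations describe 6 libraries that fall into groups and share their scaling.

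**Figure D4:**
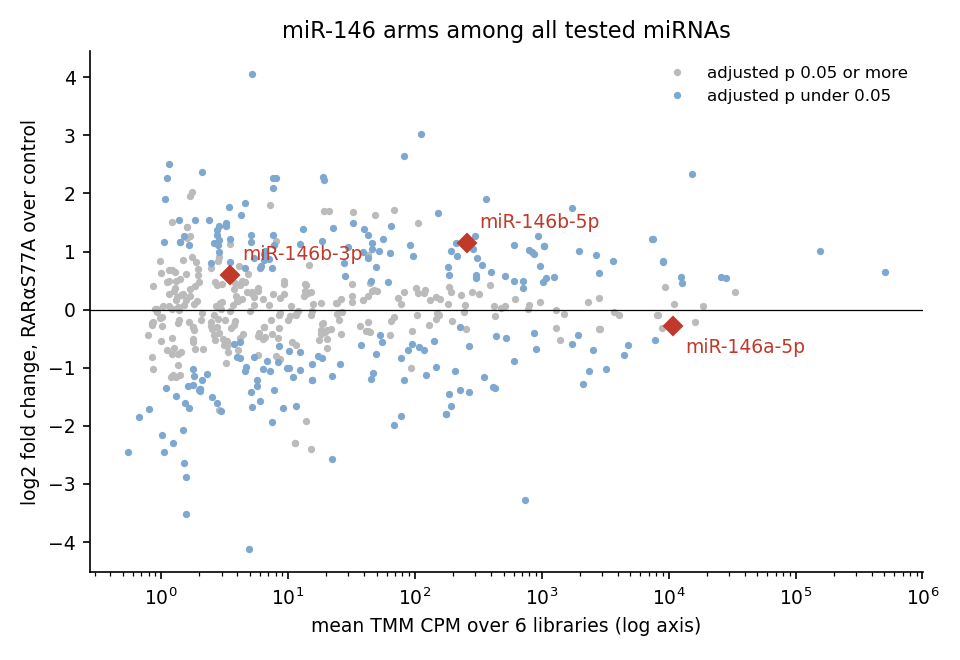
Log2 fold change (RARαS77A against control) against mean level on a log axis of CPM for the 506 tested miRNAs, with the 3 tested members marked and called miRNAs in colour. miR-146b-5p, at 1.15, and miR-146b-3p, at 0.60, lie among the 118 miRNAs called higher, and miR-146a-5p, at -0.28, lies among the abundant miRNAs not called.

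Other miRNAs tied to NF-κB were set beside the members. A list of 24 arms from precursors known to be induced by NF-κB was tested in full, and 5 were higher, 9 were lower and 10 did not pass. The higher share was 20.8% and the lower share 37.5%, against 23.3% and 21.1% of all tested miRNAs, and the median log2 fold change was -0.34, against 0.06 for all. The 5 higher arms were miR-132-5p (1.22), miR-9-5p (1.02), miR-132-3p (0.90), miR-24-3p (0.83) and miR-21-5p (0.65), as log2 fold changes. miR-132, which is known to repress the coactivator EP300, rose in both arms, and miR-132-5p went from 33.6 ± 4.20 to 78.0 ± 13.5 CPM (SD, n = 3 each; adjusted p = 0.00171, edgeR). miR-9-5p, known to target NFKB1 itself, rose from 127 ± 19.7 to 258 ± 35.0 CPM (SD, n = 3 each; adjusted p = 0.00171, edgeR). Its call was kept in 15 of 18 alternatives. The partner arm miR-9-3p went the other way, from 2.65 ± 0.637 to 1.64 ± 0.490 CPM (SD, n = 3 each). Its log2 fold change of -0.68 did not pass (adjusted p = 0.117, edgeR). The counts of miR-24-3p were within 5% of those of miR-3074-5p in every library, so these cannot be separated. The 9 lower arms had log2 fold changes of -0.48 to -1.98. They were miR-27b-5p, miR-30b-3p, miR-23b-5p, miR-21-3p, miR-30b-5p, miR-125b-1-3p, miR-125b-5p, miR-222-5p and miR-23b-3p. Of these, only miR-30b-5p, miR-125b-5p and miR-23b-3p were the more abundant of their listed arms by mean CPM. Among the higher arms, miR-132-5p, miR-9-5p, miR-24-3p and miR-21-5p were the more abundant. The lower share of the list thus comes largely from less abundant arms. miR-125b-5p, which is known to target TNFAIP3, fell from 5666 ± 594 to 3287 ± 383 CPM (SD, n = 3 each; adjusted p = 0.00171, edgeR). Of the other abundant arms, miR-27b-3p had a log2 fold change of 0.09, miR-222-3p 0.39 and miR-221-3p -0.32, none past the limit, although miR-221-3p passed it in 10 of 18 alternatives and miR-222-3p in 5. The split of this list moved with the scaling, and total counts gave 1 higher and 14 lower arms, with miR-132-5p as the higher one. miR-21-5p, whose call was narrow (adjusted p = 0.0482, edgeR), passed in 8 of 18 alternatives. Arms of one precursor share their source and are not independent. Whether different precursors of the list share a transcript was not examined, so the independent units may be fewer still. Arms of another miR-24 precursor and another miR-125b precursor were also among the tested miRNAs. The counts of miR-24-3p and miR-125b-5p are therefore not specific to the listed precursors.

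Of 6 miRNAs known to restrain NF-κB signalling, 5 were tested. The higher share was 20.0% (1 miRNA) and the lower share 60.0% (3 miRNAs), against 23.3% and 21.1% of all tested miRNAs. miR-10a-5p, known to target the kinase MAP3K7, was the only one called higher, and it rose from 2589 ± 132 to 4644 ± 187 CPM (SD, n = 3 each), or by 0.84 on the log2 scale (adjusted p = 0.000249, edgeR). Those called lower were miR-15a-5p and miR-16-5p, which are known to target the kinase CHUK, and miR-181b-5p, known to target importin-α3, with log2 fold changes of -1.14, -0.68 and -0.89. miR-199a-5p had a log2 fold change of 0.28 and did not pass, and miR-223-3p was too rare to be tested. The median of the 5 was -0.68, and all 4 calls held in each of the 18 alternatives. miR-15a-5p and miR-16-5p belong to the same family, and the lower calls cannot be taken as independent, which was not tested. Arms of different miR-16 precursors were also among the tested miRNAs. The count of miR-16-5p is therefore not specific to a single precursor.

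**Figure D5:**
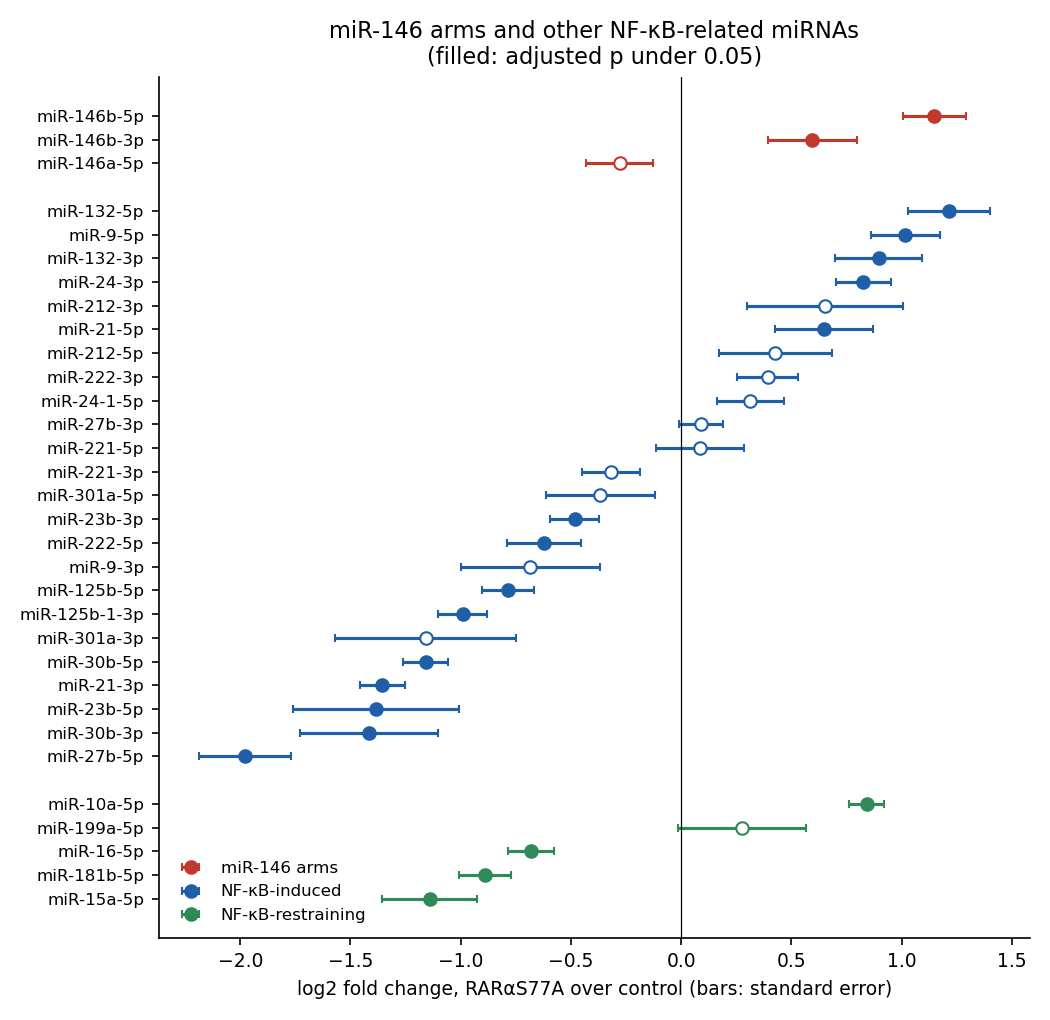
Log2 fold change with its SE (RARαS77A against control) for the tested miRNAs of the NF-κB-induced list, the NF-κB-restraining list and the members, on a linear axis with a line at 0 and filled points where the adjusted p is under 0.05. The induced list runs from -1.98 to 1.22 and the restraining list from -1.14 to 0.84, with miR-146b-5p at 1.15.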

How the data were processed

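Total RNA of MDA-MB-231 cells was made into small RNA libraries and sequenced on an Illumina platform. The authors deposited, for 1582 miRNAs (1498 known and 84 predicted), whole-number counts that are not normalized. They also deposited TPM, which equals the CPM from library totals (largest difference 4.74e-05). Bowtie is named in the submitters' processing notes, without a version. Its settings, the build, the miRNA annotation and the handling of reads with several matches were not given in the sources used here. Reads of the miR-146 guides differ in few bases, so this handling could move counts between them.

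Groups were taken from the sample titles. The members and lists were chosen with earlier results of these data known. Counts were tested with edgeR 4.0.16 in R 4.3.3 (TMM, filterByExpr with a minimum count of 10, glmQLFit, glmQLFTest), adjusted over all 506 tested miRNAs, with 0.05 as the limit. SE was the absolute log2 fold change over the root of F. Exact permutation tests were two-sided (scipy 1.17.1). Alternatives used DESeq2 1.42.0, limma 3.58.1 on counts (voom) or on log2(TPM + 1) or log2(TPM + 10), other scalings and filters, a replicate block, a batch term and each library left out. PCR reads without molecular identifiers are not independent molecules, so intervals from counts cover counting error only. Named miRNAs were the members, miR-3142, seed partners, called or most abundant members of both lists, nearest neighbours by mean level and the 3 most alike miRNAs. Some marker miRNAs and miR-9-3p, the partner of a called arm, were named as well.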

Additional observations from a re-analysis of the deposited data

How the results depend on the processing

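The increase of miR-146b-5p kept its direction and stayed past the limit in all 18 alternatives. The ratio of the miR-146 guides, whose permutation p cannot go below 0.1, kept its direction in the 8 alternatives run for it, at 1.36 to 1.46 on the log2 scale. The calls of the NF-κB-restraining list stayed at 1 higher and 3 to 4 lower. Values below are from edgeR unless another tool is named, and the cause of each change was not tested.

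miR-146a-5p passed the limit with total counts (log2 fold change -0.85), total counts without the 5 most abundant miRNAs (-0.50), no filter (-0.47), limma on log2(TPM + 1) (-0.84), limma on log2(TPM + 10) (-0.84) and the batch term (-0.59), and ranged from -0.36 to -0.15 with libraries left out. miR-146b-3p lost its call with RLE scaling (0.55), total counts (0.022), total counts without the 5 most abundant miRNAs (0.36), no filter (0.41), DESeq2 (0.55), limma-voom (0.58), limma on log2(TPM + 1) (0.013), limma on log2(TPM + 10) (0.0058) and the batch term (0.77), and ranged from 0.45 to 0.65 with libraries left out. It could not be fitted with the filter of 50 counts in 3 libraries. Whether same-numbered replicates were handled together was not stated. Deviations of log2 CPM from the group mean correlated at 0.0353, 0.103 and 0.0165 between same-numbered libraries. With a replicate block miR-146b-3p had 0.59 (adjusted p = 0.106), miR-146b-5p 1.15 (0.00205) and miR-146a-5p -0.26 (0.131).

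Members called higher were 1 in every alternative but upper quartile scaling, which gave 2, and also 1 with each library left out. Members called lower were 1 with total counts, total counts without the 5 most abundant miRNAs, no filter, both limma fits on TPM and the batch term, and 0 with each library left out. Of all miRNAs, total counts gave 51 higher and 213 lower, limma on log2(TPM + 1) 55 and 221, limma on log2(TPM + 10) 59 and 218, and the batch term 76 and 55. No filter gave 162 lower, and an adjusted p limit of 0.01 gave 62 lower. Libraries left out gave 92 to 116 lower. The NF-κB-induced list had 1 higher and 14 lower with total counts and with both limma fits on TPM, 5 lower with the batch term, and 4 to 6 higher and 8 to 10 lower with libraries left out.

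At 0 to 5 counts per library, as for miR-155-5p, miR-146a-3p and miR-3142, depth limits the comparison, and the permutation p of 3 against 3 libraries is at least 0.1.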
